A study of Homo sapiens with 54 samples.

Results

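The respiratory chain of the inner mitochondrial membrane was followed through 90 of its subunit genes in 54 tumours grown from LNCaP cells, a human prostate cancer cell line that depends on androgen. Members were chosen by gene symbol and mean level, with earlier results of these data known. The symbols were NDUFA, NDUFB, NDUFC, NDUFS and NDUFV (complex I), SDHA to SDHD (complex II) and UQCR (complex III). With them came COX4 to COX8 symbols (complex IV) and ATP5 symbols (complex V, the ATP synthase). The MT-ND, MT-CO, MT-ATP and MT-CYB genes of the mitochondrial genome completed the list. Of 60642 symbols in the table, 95 matched after 45 pseudogene symbols were left out, and 90 had a mean of 1 TPM or more. TPM is a level per transcript length, as a share of all transcripts, and here it was rescaled so that the human genes of each tumour sum to 1000000. The 90 members were 77 nuclear genes and 13 mitochondrially encoded genes, and all 90 passed the filter on low values. The patterns miss the subunits COX4I1, CYC1 and NDUFAB1, which are described with the other genes of the pathway.

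Tumours were started from LNCaP clone FGC cells under the skin of male NOD-SCID mice, which lack working T and B cells. The mice were obtained at 5 to 6 weeks of age and acclimatised for at least 1 week. All tumours therefore share 1 cell line, and each came from a mouse of its own. Surgery took place at about 200 cubic millimetres. PRE-CX mice (n = 9) had mock surgery and kept their testes, and their tumours were taken at 1000 cubic millimetres. The other 45 mice were castrated. POST-CX tumours (n = 8) were taken 1 week later, at the low point of prostate-specific antigen (PSA) in serum, and CRPC tumours (n = 10) once PSA was back at its level before castration or the tumour had grown to the size limit. ENZS (n = 12) and ENZR (n = 15) mice were castrated and then given the antiandrogen drug enzalutamide by gavage, at 10 mg/kg on 5 days a week, once PSA rose again. ENZS tumours were taken at the second low point of PSA and ENZR tumours after PSA or growth had returned on the drug. Tumour size at collection therefore differs between the groups along with the treatment, and these cannot be told apart.

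The human share of all TPM was 12.1 to 97.5% with a median of 89.9%, and it was under 70% in 4 tumours (POST-CX mice 91 and 48, ENZR mice 87 and 103). The rescaling removes that common factor, and whether the human share affects the values in other ways was not tested. After it, the mitochondrially encoded members summed to 210985, 213183, 195964 and 143303 TPM in these 4 tumours, in that order. Group medians of this sum were 145959 in POST-CX and 139580 in ENZR. All 10 LNCaP marker genes listed, among them KLK3 and HOXB13, passed the filter, and they moved in both directions. Against PRE-CX, 4 were higher and 4 lower in ENZS (47.5% and 13.6% of all genes, limma). In ENZR 3 were higher and 6 lower (44.6% and 13.8% of all genes, limma). Of 26 marker genes of stroma, vessels and blood, 8 passed, and 11 had a median of 0 over all tumours, among them PTPRC, PECAM1 and HBB. Summed, the 26 reached 13.3 to 24.4 TPM among PRE-CX tumours, 25.9 to 307 among ENZS and 17.9 to 99.5 among ENZR, and 5 of the 8 tested were higher and 1 lower in ENZS than in PRE-CX, where 47.5% of all genes were higher and 13.6% lower (limma). The cells put into the mice were LNCaP alone, and mouse genes were left out of the table. Which cells the RNA of these 26 genes came from, and its part in the results below, was not tested. In bulk tumours, fewer cells of a type and less RNA per cell cannot be told apart.

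The respiratory chain passes electrons from NADH and succinate through complexes I to IV to oxygen and pumps protons on the way, and complex V uses the proton gradient to make ATP. Its subunits come from both genomes: complexes I, III, IV and V mix nuclear and mitochondrially encoded proteins, while complex II is wholly nuclear. The mitochondrial genome is copied into long RNAs from both strands that are cut into the single messengers, and its light strand carries the messenger of MT-ND6 alone. Nuclear factors that act on promoters of respiratory genes include NRF1, the ETS factor GABPA and the estrogen-related receptors (ERR).

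Promoters are shown for 5 nuclear members with large differences between groups, from RefSeq on build GRCh38.p14, as the 250 bases before the transcript start, 5′ to 3′ on the strand of the gene. NDUFB4 (chr3:120596086-120596335, + strand) and COX7B2 (chr4:46909246-46909495, - strand) had the largest rises described below. NDUFB10 (chr16:1959288-1959537, + strand), ATP5ME (chr4:674277-674526, - strand) and UQCRQ (chr5:132866392-132866641, + strand) were among the largest falls. Capitals mark matches on either strand to the core of the NRF1 motif (GCGCATG), an ETS motif (CCGGAAG) or an ERR motif (AAGGTCA).
NDUFB4: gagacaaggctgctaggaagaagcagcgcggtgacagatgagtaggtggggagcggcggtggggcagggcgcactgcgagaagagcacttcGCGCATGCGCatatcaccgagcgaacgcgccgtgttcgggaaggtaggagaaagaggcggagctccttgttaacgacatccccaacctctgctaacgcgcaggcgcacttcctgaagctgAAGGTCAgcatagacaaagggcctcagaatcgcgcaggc
COX7B2: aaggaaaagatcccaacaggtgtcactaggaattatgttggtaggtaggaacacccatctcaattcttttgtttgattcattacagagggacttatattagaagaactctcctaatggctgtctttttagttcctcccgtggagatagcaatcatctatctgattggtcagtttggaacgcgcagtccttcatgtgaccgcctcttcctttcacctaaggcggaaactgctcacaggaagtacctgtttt
NDUFB10: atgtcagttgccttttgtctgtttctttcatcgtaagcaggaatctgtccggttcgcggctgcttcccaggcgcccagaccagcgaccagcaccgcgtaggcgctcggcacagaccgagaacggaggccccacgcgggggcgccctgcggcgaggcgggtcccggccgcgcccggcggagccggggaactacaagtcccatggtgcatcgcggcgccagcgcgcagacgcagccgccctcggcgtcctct
ATP5ME: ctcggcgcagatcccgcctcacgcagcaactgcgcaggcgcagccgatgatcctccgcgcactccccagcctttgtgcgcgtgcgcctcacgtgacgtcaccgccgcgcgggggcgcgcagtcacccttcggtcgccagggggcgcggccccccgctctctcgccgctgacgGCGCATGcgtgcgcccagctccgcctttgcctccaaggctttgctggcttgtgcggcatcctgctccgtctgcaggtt
UQCRQ: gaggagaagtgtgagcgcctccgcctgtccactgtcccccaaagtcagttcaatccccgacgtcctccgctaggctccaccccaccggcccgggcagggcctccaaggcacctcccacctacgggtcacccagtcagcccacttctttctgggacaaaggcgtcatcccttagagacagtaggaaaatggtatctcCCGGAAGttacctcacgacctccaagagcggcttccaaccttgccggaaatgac

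NDUFB4 holds an NRF1 match on both strands, which overlap, starting 159 bases before the start, and an ERR match 39 bases before it. ATP5ME holds an NRF1 match 78 bases before the start, and UQCRQ an ETS match 54 bases before it. COX7B2 and NDUFB10 hold none of the 3 in these windows. The promoter table held 62 of the 77 nuclear members. Over windows of 300 bases that reach 50 past the start, the NRF1 motif stood in 22.6% of these members and in 7.63% of the 10865 genes tested that have a promoter in the table, the ETS motif in 29.0% and 18.9%, and the ERR motif in 12.9% and 2.57%. Over all 27058 promoters the shares were 4.62%, 10.6% and 3.96%. A match describes the letters of these windows and says nothing of binding.

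The 13 mitochondrially encoded genes outweighed the 77 nuclear ones in summed level in 54 of 54 tumours. Together they made up 8.09 to 23.2% of human TPM (median 14.4%), and the nuclear members 2.00 to 3.19% (median 2.33%). The ratio of the mitochondrial to the nuclear sum, which does not depend on the scaling, was 2.64 to 10.6 with a median of 6.02. By group it was 3.03 to 7.81 in PRE-CX (median 6.02), 4.87 to 10.6 in POST-CX (median 6.25), 2.64 to 7.50 in CRPC (median 5.49), 4.51 to 10.1 in ENZS (median 6.52) and 4.44 to 10.5 in ENZR (median 6.14). All 5 groups overlapped in this ratio. No test was run on sums over members.

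The nuclear sum was 2.27 to 3.19% in PRE-CX (median 2.42), 2.00 to 2.47% in POST-CX (median 2.33), 2.11 to 3.16% in CRPC (median 2.37), 2.07 to 2.60% in ENZS (median 2.32) and 2.05 to 2.64% in ENZR (median 2.26). The mitochondrial sum was 8.09 to 17.7% in PRE-CX (median 14.5), 11.9 to 21.3% in POST-CX (median 14.6), 8.33 to 16.1% in CRPC (median 13.2), 10.9 to 21.3% in ENZS (median 14.9) and 10.7 to 23.2% in ENZR (median 14.0). The highest nuclear sum was in PRE-CX mouse 58 and the lowest in POST-CX mouse 91, and the ranges of all groups overlapped for both genomes.

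**Figure D1:**
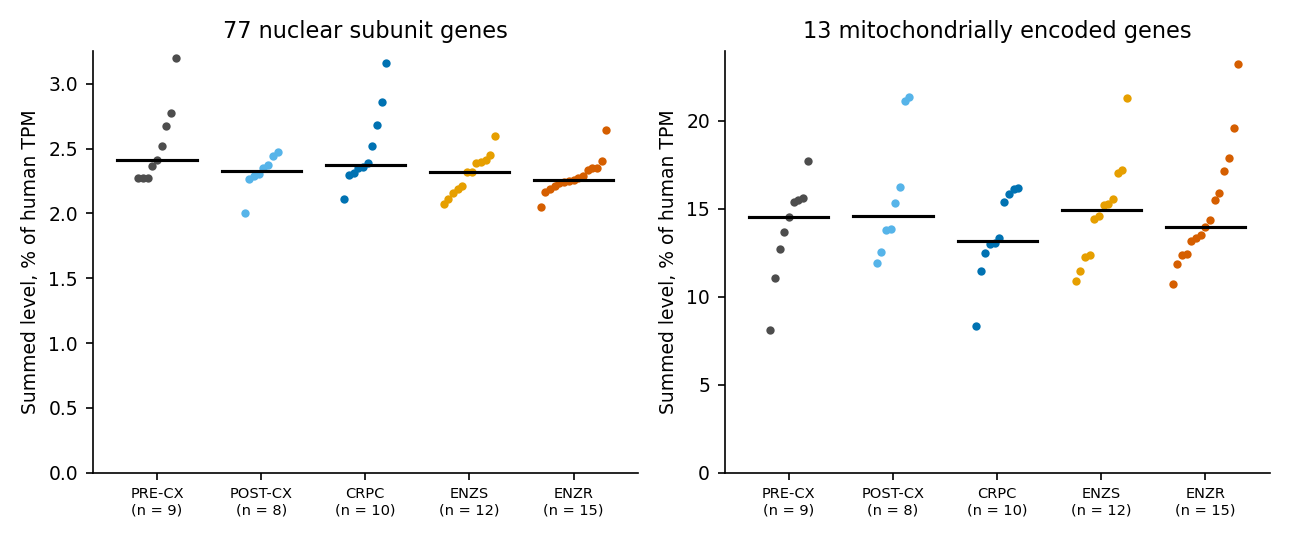
Summed level of the 77 nuclear (left) and 13 mitochondrially encoded (right) subunit genes in each of 54 tumours, as percent of human TPM, with 1 point a tumour, points sorted within a group and a bar at the group median. The nuclear medians lie between 2.26 and 2.42% and the mitochondrial ones between 13.2 and 14.9%, with overlapping ranges.

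Subunits of 1 complex differed widely in level. In complex I (37 nuclear members), mean TPM went from 28.2 for NDUFV3 (chromosome 21, 42893309 to 42913299), an accessory subunit of the flavoprotein part, to 845 for NDUFB4 (chromosome 3, 120596336 to 120602507), an accessory subunit of the membrane arm. In complex II, SDHB (chromosome 1, 17018722 to 17054032), the iron-sulfur subunit, was lowest at 97.5 and the membrane anchor SDHC (chromosome 1, 161314381 to 161363206) highest at 233. Complex III went from the Rieske protein UQCRFS1 (chromosome 19, 29205320 to 29213151) at 69.5 to the hinge protein UQCRH (chromosome 1, 46303698 to 46316776) at 829.4. These are levels per transcript length, so comparison between genes rests on the lengths used in the quantification.

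Complex IV held both the lowest and the highest nuclear member, COX7B2 (chromosome 4, 46734827 to 46909245), a paralog of COX7B, at 12.7 and COX7C (chromosome 5, 86617941 to 86620962) at 1028. In complex V, the epsilon subunit ATP5F1E (chromosome 20, 59025475 to 59032335) had 125 and the catalytic beta subunit ATP5F1B (chromosome 12, 56638175 to 56645984) 910.4. NDUFA4 is counted with complex I by its symbol, although RefSeq now names it COXFA4, a subunit of complex IV. COX7B2 was the member nearest above the threshold of 1 TPM, and ATP5MGL, at 0.192, the nearest below it.

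Of the other members that fell under 1 TPM, the muscle forms COX6A2 and COX7A1 were listed at 0 in every tumour, and COX6B2 and COX8C had means of 0.0329 and 0.0355 TPM. The widely expressed forms COX6A1, COX6B1 and COX7A2 therefore made up at least 99.9% of the summed level of each pair in every tumour. The c subunit of the rotor ring of complex V is encoded by 3 genes whose mature protein is the same. ATP5MC2 gave the largest share of their sum, with group medians of 47.6 to 51.2%, followed by ATP5MC3 with 25.6 to 28.6% and ATP5MC1 with 21.9 to 25.3%.

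Among the mitochondrial members the mean level was highest for MT-ATP8 (positions 8366 to 8572 of the mitochondrial genome, GRCh38), at 28879 TPM. Below it, in falling order, came MT-CO1 (19256), MT-CO2 (18486), MT-CO3 (16352), MT-ND4L (15385), MT-ATP6 (13372) and MT-ND4 (10876). After these came MT-CYB (6369), MT-ND2 (5369), MT-ND3 (4294), MT-ND1 (4129) and MT-ND5 (2549). The level was lowest for MT-ND6 (positions 14149 to 14673), at 569. MT-CO1, MT-CO2 and MT-CO3 are the core of complex IV, MT-CYB is cytochrome b of complex III, MT-ATP6 and MT-ATP8 belong to the membrane part of complex V, and the 7 MT-ND genes belong to complex I. The ranges over tumours of neighbours in this order overlapped, except that the highest MT-ND6 level, 1052, lay below the lowest MT-ND5 level, 1194. MT-ATP8 overlaps MT-ATP6 and MT-ND4L overlaps MT-ND4 on the same strand, so reads in the shared bases were divided between the genes by the quantification. The levels of these genes are therefore not levels of separate messengers, and the mitochondrial sums and ratios hold all of them.

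Near-identical copies elsewhere in the genome make some levels uncertain. Listed copies had summed levels of 25.8% of SDHA, 13.4% of MT-ATP6, 11.8% of UQCRFS1, 9.82% of COX7C, 6.50% of NDUFA5 and 6.15% of NDUFB4. The spread between tumours of 1 group, as an SD on the log2 scale, had a median of 0.21 over the nuclear members and 0.34 over the mitochondrial ones, against 0.33 over all genes tested. It was lowest for ATP5PB (0.15), a subunit of the peripheral stalk of complex V, and highest for COX7B2 (1.32).

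POST-CX was compared with PRE-CX, groups that differ in castration and also in tumour size at collection. Of 77 nuclear members, 12 were lower and 1 was higher, while 20.6% of all genes tested were called higher and 5.62% lower (limma, adjusted p under 0.05). The median log2 difference was -0.09 over the nuclear members, 0.23 over the mitochondrial ones and 0.16 over all genes. The falls lay in complex I (5 of 37), complex III (2 of 8) and complex V (5 of 18), with none in complexes II and IV. Of the 13 mitochondrial members 0 were called and 2 had an unadjusted p under 0.05. All 13 differences were above 0, from 0.12 for MT-CO1 to 0.49 for MT-ND6. The 13 share the same tumours, so these are not separate results. POST-CX mice 91 and 48, with human shares of 27.9 and 59.7%, had mitochondrial sums of 210985 and 213183 TPM. The other POST-CX tumours had 118914 to 162473 TPM, and PRE-CX tumours 80927 to 177312 TPM. The split of the nuclear members depended on the scaling. Centred on each tumour's median, 28 were lower and 0 higher, and with TPM as deposited 0 were called.

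UQCRQ (chromosome 5, 132866642 to 132868847), a small subunit of complex III, had the largest fall. Its level was 744 to 1311 TPM (median 919) in PRE-CX and 581 to 747 TPM (median 652) in POST-CX. All but 1 of the 8 POST-CX tumours lay below every PRE-CX tumour, and the level fell by 0.48 on the log2 scale (SE 0.10, adjusted p 0.000482 by limma). ATP5MD (chromosome 10, 103389050 to 103396475), a small membrane subunit of complex V, fell by 0.45 (SE 0.13, adjusted p 0.00841 by limma). UQCR10 (chromosome 22, 29767369 to 29770413), another small subunit of complex III, was 135 to 237 TPM (median 149.7) in PRE-CX and 101 to 129 TPM (median 122) in POST-CX. The UQCR10 groups did not overlap, and it fell by 0.42 (SE 0.10, adjusted p 0.00255 by limma). The other falls were those of NDUFS5, ATP5ME, NDUFA6, NDUFA7, ATP5MF, NDUFB10, ATP5MPL, NDUFA2 and ATP5F1C, between 0.24 and 0.36. Groups did not overlap for 3 nuclear members in all, each lower (UQCR10, NDUFS5 and NDUFA6), and for 0 higher, against 1.17% and 3.82% of all genes.

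NDUFB4 was the 1 nuclear member that rose. Its level was 437 to 794 TPM (median 547) in PRE-CX and 504 to 997 TPM (median 862) in POST-CX. In 7 of 8 POST-CX tumours it lay above every PRE-CX tumour, and POST-CX mouse 99, at 504 TPM, lay within the PRE-CX range. The rise was 0.57 on the log2 scale (SE 0.16, adjusted p 0.00634 by limma). With each tumour centred on its median the difference was 0.38, and with TPM as deposited it was 0.29, and neither passed (limma adjusted p 0.104 and 0.588).

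Between CRPC and PRE-CX, which share the PRE-CX tumours with the comparison above, 1 nuclear member was higher and 2 were lower, while 14.2% of all genes tested were called higher and 5.87% lower (limma). The median difference was -0.000125 over the nuclear, 0.00372 over the mitochondrial members and 0.08 over all genes, and 0 mitochondrial members were called, 0 of them at an unadjusted p under 0.05. NDUFB4 rose by 0.60 (SE 0.15, adjusted p 0.00286 by limma) and was 542 to 1171 TPM (median 899.9) in CRPC, with 6 of 10 tumours above every PRE-CX tumour. ATP5ME (chromosome 4, 672436 to 674276), the e subunit of complex V, fell by 0.41 (SE 0.11, adjusted p 0.00373 by limma). Its level was 759.9 to 1276 TPM (median 832) in PRE-CX and 541 to 1085 TPM (median 652) in CRPC, and 7 of 10 CRPC tumours lay below every PRE-CX tumour. NDUFS5 (chromosome 1, 39026350 to 39034615), an accessory subunit of the membrane arm of complex I, fell by 0.28 (SE 0.09, adjusted p 0.0219 by limma). With limma array weights, which count tumours far from their group less, 3 nuclear members were higher and 11 lower. With TPM as deposited 0 were called, so these 3 calls were lost, and centred on the tumour median 1 was higher and 6 lower.

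Relapse after castration, CRPC against POST-CX, gave 0 calls among the 90 members, while 0.00568% of all genes tested were called higher and 0.0568% lower (limma). At an unadjusted p under 0.05 there were 8 nuclear and 2 mitochondrial members, and array weights called 2 nuclear members. The differences were above 0 in 66 of 77 nuclear members, with a median of 0.09, and below 0 in 13 of 13 mitochondrial ones, with a median of -0.25. Over all genes the median was -0.07. The 13 mitochondrial members share the same tumours. Their sum was 210985 and 213183 TPM in POST-CX mice 91 and 48, which had low human shares. It was 118914 to 162473 TPM in the other POST-CX tumours and 83335 to 161493 TPM in CRPC. The c subunit gene ATP5MC1 (chromosome 17, 48892787 to 48895871) had the largest nuclear difference, 0.37 (SE 0.13, adjusted p 0.189 by limma).

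ENZS tumours, which were responding to enzalutamide, differed from PRE-CX in 38 of 77 nuclear members. Of these 27 were lower and 11 higher, while 47.5% of all genes tested were called higher and 13.6% lower (limma). The median difference was -0.15 over the nuclear members against 0.29 over all genes, and 73 of 77 nuclear members lay below the all-gene median. With each tumour centred on its median the split was 58 lower and 2 higher, and with TPM as deposited 3 lower and 2 higher. The median over the nuclear members was below 0 under every scaling tried.

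By complex, 10 of 18 members of complex V were lower and 0 higher, and all 18 differences were below 0. The 10 took in the 3 c subunit genes (ATP5MC1, ATP5MC2 and ATP5MC3), 4 of the 5 small membrane subunits and the catalytic ATP5F1B, which fell by 0.30 (SE 0.10, adjusted p 0.00823 by limma). In complex III, 5 of 8 were lower and 0 higher (UQCRQ, UQCRH, UQCRC1, UQCR10 and UQCRB). In complex IV, 3 of 10 were lower (COX7C, COX5A and COX5B) and 2 higher (COX7B2 and COX6C). Complex I was divided, with 9 of 37 lower (NDUFB10, NDUFS5, NDUFB11, NDUFA7, NDUFV1, NDUFV2, NDUFA2, NDUFB5 and NDUFA9) and 8 higher (NDUFB4, NDUFA5, NDUFA3, NDUFS4, NDUFC1, NDUFB2, NDUFB9 and NDUFB8). Of its 7 nuclear core subunits, which carry out electron transfer, NDUFV1 and NDUFV2 were lower and 0 higher. Apart from NDUFB10, ATP5ME, ATP5MC2 and NDUFS5, the falls of single members were between 0.18 (NDUFA9) and 0.48 (UQCRQ) on the log2 scale. In complex II, SDHC rose by 0.19 (SE 0.07, adjusted p 0.0261 by limma), and its difference was -0.11 when tumours were centred on their median (limma adjusted p 0.243).

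**Figure D2:**
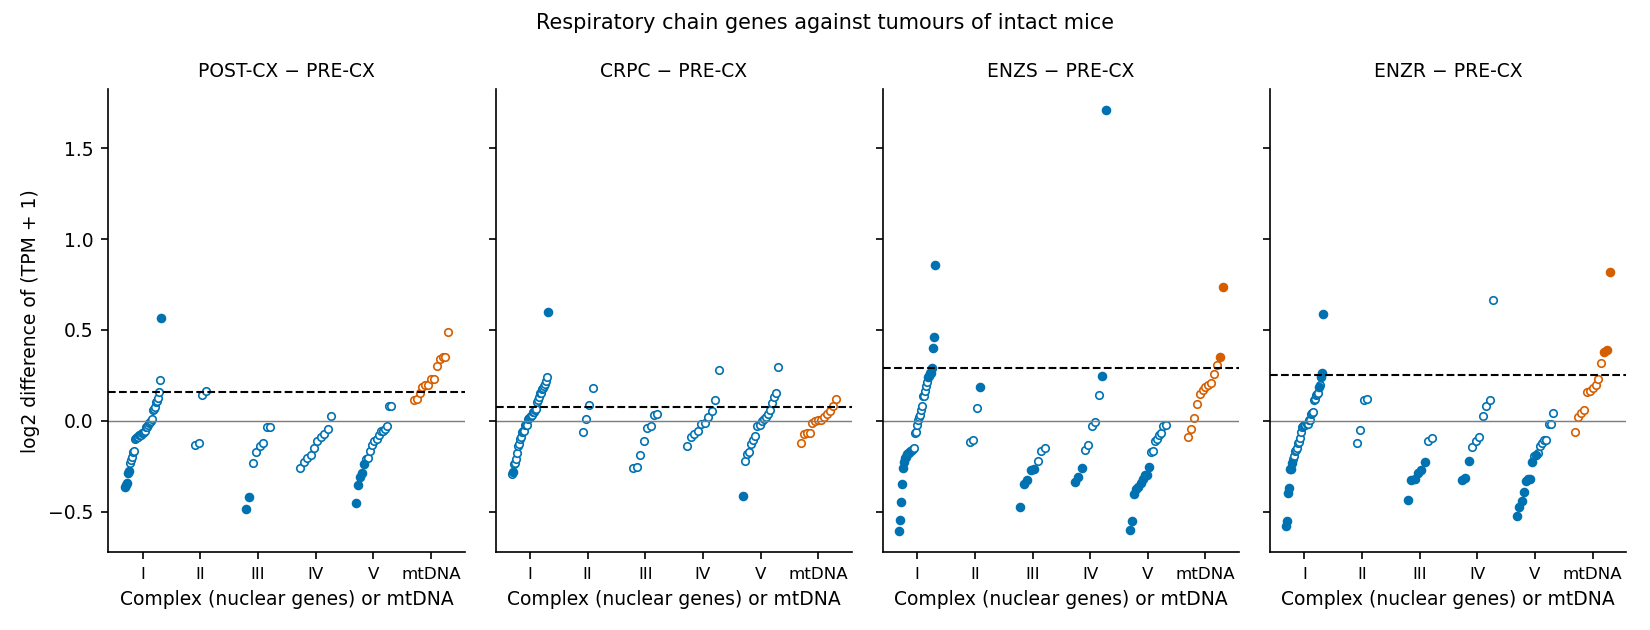
log2 difference of TPM + 1 of each of the 90 members between 4 groups and PRE-CX, in columns by complex for nuclear genes (blue) and for mitochondrially encoded genes (mtDNA, orange). Filled points passed limma at an adjusted p under 0.05, the grey line is 0 and the dashed line is the median of all genes tested, 0.16, 0.08, 0.29 and 0.25 from left to right; complex III and V points all lie below 0 in ENZS.

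NDUFB10 (chromosome 16, 1959538 to 1961975), an accessory subunit of the membrane arm of complex I, had the largest fall. It was 289 to 387 TPM (median 326) in PRE-CX and 168 to 253 TPM (median 219.7) in ENZS. Every ENZS tumour lay below every PRE-CX tumour, and the level fell by 0.61 (SE 0.09, adjusted p 1.10e-07 by limma). ATP5ME, the e subunit, was 490.1 to 803 TPM (median 609.6) in ENZS. It lay below every PRE-CX tumour in 11 of 12 and fell by 0.60 (SE 0.10, adjusted p 1.79e-06 by limma). ATP5MC2 (chromosome 12, 53665170 to 53681423), a c subunit gene, was 417 to 756 TPM (median 483) in PRE-CX and 289 to 409 TPM (median 364) in ENZS. These ranges did not overlap, and it fell by 0.55 (SE 0.09, adjusted p 8.09e-07 by limma). In all, 3 nuclear members (NDUFB10, ATP5MC2 and NDUFS5) were lower and 1 (NDUFB4) higher without overlap, against 2.94% and 9.19% of all genes.

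COX7B2 had the largest rise, 1.71 on the log2 scale (SE 0.56, adjusted p 0.00699 by limma). It was 0 to 42.2 TPM (median 4.06) in PRE-CX and 4.05 to 63.4 TPM (median 17.0) in ENZS, and the PRE-CX value of 0 was listed in 1 tumour. The groups overlapped, and 2 of 12 ENZS tumours lay above every PRE-CX tumour. COX7B2 made up 0 to 9.46% in PRE-CX (median 1.57%) and 1.71 to 21.1% in ENZS (median 5.53%) of the summed level of COX7B and COX7B2, so COX7B stayed the main form in every tumour.

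NDUFB4 rose by 0.86 (SE 0.14, adjusted p 1.44e-06 by limma), and its range of 815 to 1575 TPM (median 1014) in ENZS did not overlap PRE-CX. NDUFA5 (chromosome 7, 123536997 to 123601651), an accessory subunit of the peripheral arm, was 139.9 to 201 TPM (median 162) in PRE-CX and 193 to 280.2 TPM (median 229) in ENZS. It lay above every PRE-CX tumour in 9 of 12 ENZS tumours, with a rise of 0.46 (SE 0.11, adjusted p 0.000229 by limma). NDUFA3 (chromosome 19, 54102855 to 54107568), an accessory subunit of the membrane arm, rose by 0.40 (SE 0.11, adjusted p 0.00129 by limma). Centred on the tumour median, NDUFA5 and NDUFA3 had differences of 0.16 and 0.10 and did not pass, while NDUFB4 and COX7B2 did, so the calls of NDUFA5 and NDUFA3 depended on the scaling. Of the promoters shown above, those of the rises NDUFB4 and COX7B2 hold NRF1 and ERR matches and none, respectively. Among the falls, that of ATP5ME holds an NRF1 match, that of UQCRQ an ETS match and that of NDUFB10 none. Among members with a promoter in the table, the NRF1 motif stood in 2 of 8 called higher and 3 of 18 called lower, the ETS motif in 0 and 4, and the ERR motif in 2 and 0. Of the 36 not called, 9 held the NRF1, 14 the ETS and 6 the ERR motif, and no test was run on these counts.

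**Figure D3:**
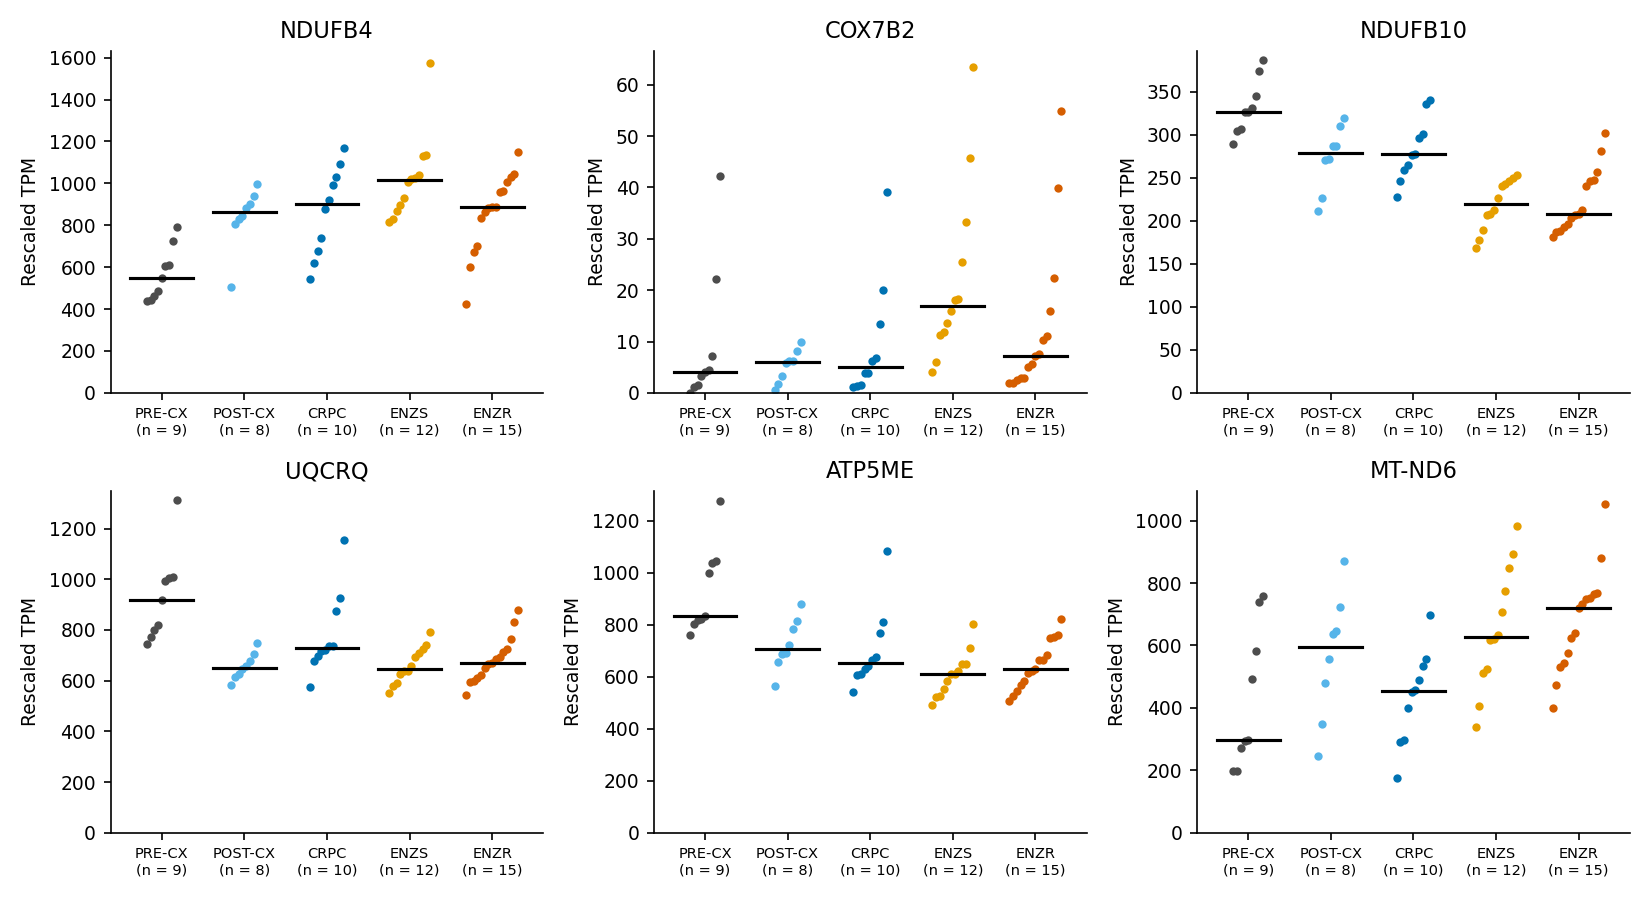
Level of 5 nuclear members and of MT-ND6 in each tumour, in rescaled TPM, with 1 point a tumour, points sorted within a group and a bar at the group median. NDUFB4 lies higher in ENZS than in PRE-CX and NDUFB10 lower, each without overlap, while COX7B2 reaches 63.4 TPM in 1 ENZS tumour and its groups overlap.

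Against PRE-CX, ENZR tumours, which had relapsed on enzalutamide, had 25 nuclear members lower and 4 higher, while 44.6% of all genes tested were called higher and 13.8% lower (limma). The median difference was -0.11 over the nuclear members and 0.25 over all genes, and 74 of 77 lay below the all-gene median. Centred on the tumour median the split was 57 lower and 0 higher, and with TPM as deposited 11 lower and 0 higher. Complex V had 9 of 18 lower, complex III 6 of 8, complex IV 3 of 10 and complex I 7 of 37, and 4 complex I members were higher. ENZS and ENZR were compared with the same PRE-CX tumours, so their calls are not independent. Of the members called lower, 22 were in both lists, 81.5% of the ENZS list and 88.0% of the ENZR list, and of those called higher 4 were in both, 36.4% of the ENZS list of 11 and the whole ENZR list of 4.

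NDUFB10 was 182 to 302 TPM (median 207) in ENZR and fell by 0.58 (SE 0.09, adjusted p 1.70e-07 by limma), with 14 of 15 tumours below every PRE-CX tumour. NDUFS5 was 544 to 871 TPM (median 579) in PRE-CX and 355 to 574 TPM (median 419) in ENZR. It lay below every PRE-CX tumour in 13 of 15 and fell by 0.55 (SE 0.08, adjusted p 2.44e-07 by limma). ATP5ME was 505 to 822 TPM (median 628) in ENZR and fell by 0.52 (SE 0.10, adjusted p 1.21e-05 by limma). The 4 rises that passed were all of complex I, NDUFB4 by 0.59 (SE 0.14, adjusted p 0.000283 by limma), NDUFA3 by 0.27 (SE 0.10, adjusted p 0.0238 by limma), NDUFA5 by 0.24 (SE 0.10, adjusted p 0.0386 by limma) and NDUFB8 by 0.19 (SE 0.08, adjusted p 0.0484 by limma). None of these 4 rises passed with tumours centred on their median, and none with TPM as deposited. NDUFA5 had a difference of -0.02 when centred and of -0.0033 as deposited. COX7B2 was 1.95 to 54.8 TPM (median 7.23) in ENZR and had a difference of 0.67 that did not pass (SE 0.53, adjusted p 0.281 by limma).

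The mitochondrial members gave few calls in the enzalutamide groups. In ENZS, MT-ND2 and MT-ND6 were higher than in PRE-CX, in ENZR MT-ND1, MT-ND5 and MT-ND6, and 0 were lower in either. These are 2 and 3 of 13, while 47.5% and 44.6% of all genes were higher. Medians over the 13 were 0.18 and 0.18, between the nuclear and the all-gene medians. Another scaling moves all genes of a comparison about alike, and these medians were -0.11 and -0.08 with tumours centred on their median, and 0.15 and -0.07 with TPM as deposited. MT-CO1 had the lowest differences, -0.09 (SE 0.13, adjusted p 0.583 by limma) and -0.06 (SE 0.13, adjusted p 0.700 by limma). MT-ND2 rose by 0.35 in ENZS (SE 0.15, adjusted p 0.0360 by limma). In ENZR, MT-ND1 rose by 0.38 (SE 0.15, adjusted p 0.0263 by limma) and MT-ND5 by 0.39 (SE 0.15, adjusted p 0.0268 by limma). None of these 3 calls held with tumours centred, as deposited or with array weights.

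MT-ND6 stood apart from the other 12. It was 197 to 757 TPM (median 297) in PRE-CX, 246 to 869.8 TPM (median 597) in POST-CX, 176 to 698 TPM (median 454) in CRPC, 339 to 982 TPM (median 626) in ENZS and 398 to 1052 TPM (median 719.8) in ENZR. Medians were higher in each castrated group than in PRE-CX, all groups overlapped, and 4 tumours each of ENZS and ENZR lay above every PRE-CX tumour. The rise was 0.74 in ENZS (SE 0.23, adjusted p 0.00493 by limma) and 0.82 in ENZR (SE 0.22, adjusted p 0.00143 by limma), and over the alternatives the limma adjusted p went from 0.00318 to 0.0737 and from 0.000521 to 0.0949. The ENZS call was lost with tumours centred on their median and the ENZR call with TPM as deposited. It is the sole light-strand member, and its gene lies between MT-ND5 and MT-CYB, which are read from the other strand. The strand setting of the quantification is not given in the sources used here, so RNA of the other strand in this stretch may be counted with it.

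The ribosomal RNAs of the same genome, MT-RNR1 and MT-RNR2, moved more than any of its messengers in ENZS and ENZR. MT-RNR1 was 1836 to 4489.8 TPM (median 3614) in PRE-CX, 5877 to 15449.7 TPM (median 9375) in ENZS and 3495 to 21505 TPM (median 9163) in ENZR. Every ENZS tumour and 13 of 15 ENZR tumours lay above every PRE-CX tumour, with rises of 1.57 (SE 0.23, adjusted p 1.29e-07 by limma) and 1.48 (SE 0.22, adjusted p 2.53e-07 by limma). MT-RNR2 rose by 1.06 and 1.01 in these groups (limma adjusted p 6.28e-06 and 8.20e-06). The libraries were selected for polyadenylated RNA, which catches ribosomal RNA only in part. MALAT1, a long RNA kept in the nucleus, rose alongside by 1.16 and 1.20 (limma adjusted p 5.64e-06 and 1.89e-06), while NEAT1, another RNA kept in the nucleus, had 0.19 and 0.32 and did not pass (limma adjusted p 0.484 and 0.215). Their part in the values of the messengers was not tested.

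**Figure D4:**
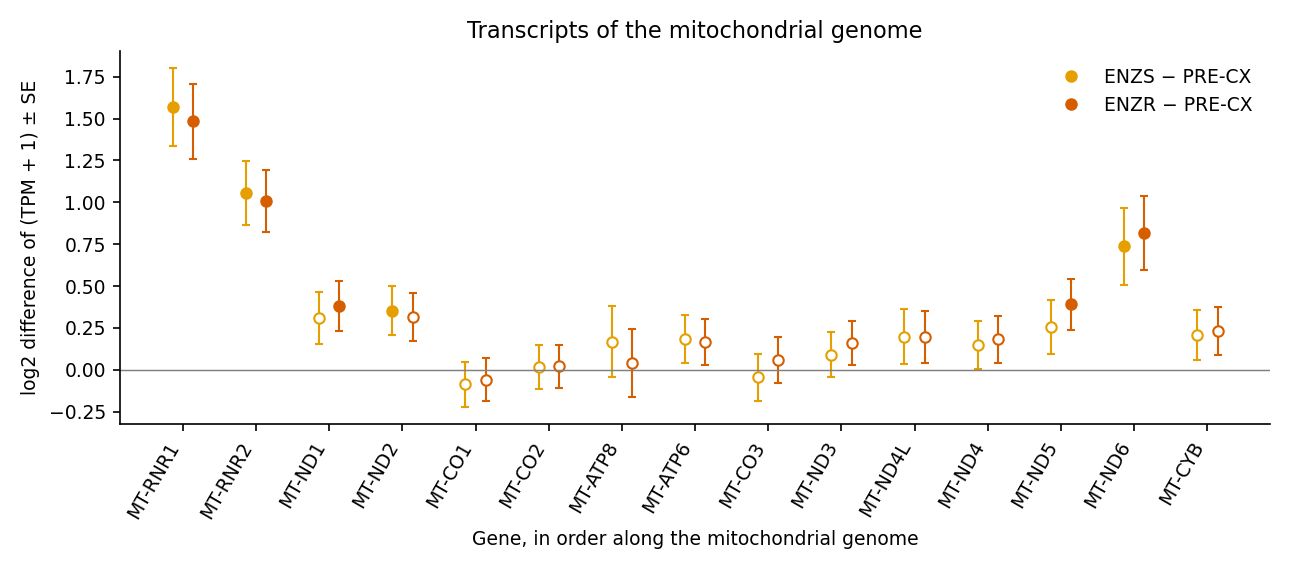
log2 difference of TPM + 1, with SE, of the 2 ribosomal RNAs and 13 subunit genes of the mitochondrial genome, in order along the genome. ENZS (n = 12) and ENZR (n = 15) are set against PRE-CX (n = 9). Filled points passed limma at an adjusted p under 0.05: both ribosomal RNAs and MT-ND6 in both groups, MT-ND2 in ENZS, and MT-ND1 and MT-ND5 in ENZR.

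ENZS was also compared with CRPC, the castrated tumours that grew without the drug. Of the nuclear members 14 were lower and 1 higher, while 31.4% of all genes tested were called higher and 6.41% lower (limma). The median was -0.10, against 0.21 over all genes. Complex V had 6 of 18 lower, complex III 3 of 8, complex I 3 of 37 and complex IV 2 of 10. The largest fall was that of ATP5MC1, which was 204 to 329 TPM (median 233) in CRPC and 127 to 222 TPM (median 159.7) in ENZS. It lay below every CRPC tumour in 10 of 12 and fell by 0.59 (SE 0.11, adjusted p 0.000115 by limma). ATP5MC2 fell by 0.37 (SE 0.09, adjusted p 0.00102 by limma) and NDUFB10 by 0.37 (SE 0.09, adjusted p 0.00101 by limma). COX7B2 was higher by 1.43 (SE 0.54, adjusted p 0.0322 by limma), a call not kept with tumours centred, as deposited or with no filter, and MT-ND6, the 1 mitochondrial member called, by 0.62 (SE 0.22, adjusted p 0.0259 by limma), a call lost with tumours centred, as deposited, with no filter or with array weights. Centred on the tumour median 41 nuclear members were lower and 0 higher, as deposited 0 were called, and array weights gave 13 lower and 10 higher.

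Relapse on enzalutamide, ENZR against ENZS, gave 0 calls among the members, and 0% of all 17593 genes were called (limma). At an unadjusted p under 0.05 there were 5 nuclear and 0 mitochondrial members, and every alternative for this comparison also called 0 members. The largest difference was that of COX7B2, -1.04 (SE 0.49, adjusted p 0.473 by limma), and NDUFB4 had -0.27 (SE 0.13, adjusted p 0.478 by limma). The unadjusted 95% interval of NDUFB4 ran from -0.51 to -0.02. The difference between both relapse steps, (ENZR minus ENZS) minus (CRPC minus POST-CX), was called for 0 of the 90 members and for 0.199% of all genes, with 6 nuclear and 0 mitochondrial members at an unadjusted p under 0.05. Array weights called 2 members.

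Other genes of the pathway were counted from lists. Of 51 assembly factors, 14 were higher and 11 lower in ENZS than in PRE-CX, with a median of 0.07, and 9 and 11 in ENZR. Over all genes 47.5% were higher and 13.6% lower in ENZS, with a median of 0.29, and 44.6% and 13.8% in ENZR, and the counts of each list below stand against these shares. NDUFAF4, an assembly factor of complex I, rose by 1.12 in POST-CX (SE 0.31, adjusted p 0.00548 by limma), 0.79 in CRPC (SE 0.29, adjusted p 0.0463 by limma), 0.77 in ENZS (SE 0.28, adjusted p 0.0149 by limma) and 0.94 in ENZR (SE 0.27, adjusted p 0.00236 by limma). Of 30 genes for expression and upkeep of mitochondrial DNA, 10 were lower and 2 higher in ENZS, and 10 and 1 in ENZR. TFAM, which packages and activates mitochondrial DNA, fell by 0.39 in ENZS (SE 0.14, adjusted p 0.0128 by limma) and 0.42 in ENZR (SE 0.13, adjusted p 0.00513 by limma). LRPPRC, which stabilizes mitochondrial messengers, fell by 0.38 in ENZS (SE 0.11, adjusted p 0.00332 by limma), and POLRMT, the RNA polymerase of mitochondria, had a difference there of 0.28 that did not pass (SE 0.14, adjusted p 0.0677 by limma).

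Of the 10 nuclear regulators of respiratory genes, 9 passed the filter, and PPARGC1A did not, with group medians of 0.0530 to 0.380 TPM. In ENZS 3 were higher and 1 lower. NRF1 rose by 0.45 (SE 0.12, adjusted p 0.00180 by limma) and GABPA by 0.37 (SE 0.11, adjusted p 0.00471 by limma), while ESRRA, an ERR gene, had -0.22 (SE 0.12, adjusted p 0.114 by limma). MYC, a growth regulator among whose targets are mitochondrial genes, fell by 1.69 in ENZS (SE 0.31, adjusted p 9.26e-06 by limma) and 1.08 in ENZR (SE 0.30, adjusted p 0.00194 by limma). It was 65.0 to 146 TPM (median 114) in PRE-CX and 7.38 to 65.5 TPM (median 37.3) in ENZS, with 11 of 12 ENZS tumours below every PRE-CX tumour. Against CRPC it fell by 1.44 in ENZS (SE 0.31, adjusted p 0.000372 by limma).

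Of 29 genes for import, carriers and the citric acid cycle, taken as markers of mitochondrial content, 13 were lower and 4 higher in ENZS (13.6% and 47.5% of all genes), with a median of -0.13, and 10 and 4 in ENZR. Among listed genes that the symbol patterns miss, 8 were in the table and 7 were tested, with 1 higher and 2 lower in ENZS and the same counts in ENZR. DMAC2L, also known as ATP synthase factor B, rose by 0.37 in CRPC (SE 0.10, adjusted p 0.00666 by limma), 0.36 in ENZS (SE 0.10, adjusted p 0.00137 by limma) and 0.32 in ENZR (SE 0.09, adjusted p 0.00246 by limma). CYC1, cytochrome c1 of complex III, fell by 0.56 in ENZS (SE 0.11, adjusted p 3.58e-05 by limma) without overlap, and by 0.48 in ENZR (SE 0.11, adjusted p 0.000202 by limma). NDUFAB1 fell by 0.20 in ENZS (SE 0.08, adjusted p 0.0248 by limma), COX4I1 had -0.18 (SE 0.11, adjusted p 0.144 by limma), and CYCS, the electron carrier cytochrome c, had -0.18 (SE 0.11, adjusted p 0.144 by limma). COX4I2, the lung form of COX4I1, did not pass the filter. NDUFA4L2, a paralog of NDUFA4 that is induced by low oxygen, was 19.3 to 368 TPM (median 89.8) in PRE-CX and 1.04 to 49.5 TPM (median 11.1) in POST-CX and fell by 2.78 in POST-CX (SE 0.77, adjusted p 0.00624 by limma), with 6 of 8 tumours below every PRE-CX tumour. Of 11 nuclear copies of mitochondrial genes, 4 were tested, and 0 were called against PRE-CX in any group. In ENZS against CRPC 1 of them was higher, as were 31.4% of all genes (limma).

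Genes of the cytosolic ribosome were counted alongside. Of 79 cytosolic ribosomal protein genes tested, 78 were lower in ENZS than in PRE-CX, with a median of -0.80, and 77 were lower in ENZR, with a median of -0.63. Their summed level had medians of 184126 TPM in PRE-CX and 119142 TPM in ENZS. In POST-CX and CRPC 0 of them were called. Their part in the values of the nuclear members was not tested. The nuclear members are also short, with a median transcript length of 626 bases against 1099 over all genes with a length, for 75 of 77 members. In ENZS against PRE-CX, the median difference was 0.21 over genes under 800 bases, 0.31 over the others and -0.15 over the nuclear members. The part of length in the values of the nuclear members was not tested. Across genes, Spearman's rho of length with that difference was 0.117 (n = 14525 genes, which are not independent).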

How the data were processed

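Polyadenylated RNA of 54 xenograft tumours was sequenced by the authors as stranded paired-end libraries (TruSeq) with reads of 125 bases, at about 40 M read pairs. The submitters' processing notes name FastQC 0.11.9, Trim Galore 0.6.5, STAR 2.7.2b and RSEM 1.3.3. Reads were aligned by the authors to human (GRCh38, Gencode 33) and mouse genomes together, and the deposited TPM hold 60642 human symbols without the mouse genes, so tumours with more mouse RNA have lower human totals. TPM hold no read depth, so no counting interval can be given. The strand setting of the quantification is not given in the sources used here.

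Each tumour was rescaled to a human total of 1000000. Genes with at least 1 TPM in 8 tumours (17593) were tested on log2(TPM + 1), a scale that understates the change of low genes, with limma 3.58.1 (R 4.3.3), in 1 fit of all 5 groups with 7 comparisons, at a Benjamini-Hochberg adjusted p under 0.05. Spread between tumours of single mice is thus the error of every test. Python 3.11.15 with pandas 2.3.3, numpy 2.4.6 and scipy 1.17.1 made the tables. The test was checked on simulated data. Members and gene lists were chosen with earlier results of these data known. Genes named are all mitochondrial members, the nuclear members of highest and lowest mean in each complex, the 3 largest called rises and falls in each comparison, tissue-restricted COX forms, and, of the other lists, 13 genes of known role and the largest called difference. NDUFB8, DMAC2L, MALAT1, NEAT1 and members listed by name in counts were chosen after their values were seen. Positions and promoters are from RefSeq on GRCh38.p14. No batch, litter or date is given in the labels. Alternatives were TPM as deposited, rescaling without MT- symbols, centring each tumour on its median, a pseudocount of 0.1, a filter of 5 TPM or none, array weights, only the groups compared, and leaving out 2 or 4 tumours with low human totals, the last chosen after the data were seen.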

Additional observations from a re-analysis of the deposited data

Results flagged for a closer look

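In 14 of 108 groups tested (36 quantities in groups of up to 10 tumours), 1 tumour stood apart from the rest of its group by Dixon's criterion, which chance gives in about 1 of 20 groups. The quantities share tumours, so these are not 14 separate events.

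POST-CX mouse 91, whose human share of TPM was 27.9%, was lowest in 6 of them. Its nuclear sum was 19997 TPM (nearest 22685), ATP5F1B 641 (903), ATP5MC2 340.4 (431), UQCR10 101 (118), SDHB 70.5 (90.1) and NDUFV3 19.6 (28.6). Without this tumour and ENZR mouse 87, the difference of UQCR10 between POST-CX and PRE-CX was -0.38 (limma adjusted p 0.00866). Whether the low human share plays a part was not tested.

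PRE-CX mouse 58 was highest for UQCRQ at 1311 TPM (nearest 1007), NDUFS5 at 871 (693) and UQCR10 at 237 (182). These are members that fell in POST-CX.

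NDUFB4 was 504 TPM in POST-CX mouse 99, against 808 in the nearest tumour of its group. ATP5F1E was 145 in POST-CX mouse 18 (nearest 121). In CRPC, COX7B2 was 39.1 in mouse 29 (20.1), ATP5F1B 1479.6 in mouse 81 (1117) and ATP5ME 1085 in mouse 47 (809).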

How the results depend on the processing

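The counts of nuclear members called moved with the scaling and with array weights (written below as total, with higher and lower). TPM as deposited gave 0 for POST-CX and 0 for CRPC against PRE-CX, 5 (2 and 3) for ENZS and 11 (0 and 11) for ENZR against PRE-CX, and 0 for ENZS against CRPC. Centring on each tumour's median gave 28 (0 and 28), 7 (1 and 6), 60 (2 and 58), 57 (0 and 57) and 41 (0 and 41) in the same order. For POST-CX against PRE-CX, leaving out the 4 tumours with the lowest human totals gave 8 (1 and 7). For CRPC against PRE-CX, rescaling without MT- symbols gave 6 (2 and 4), leaving out POST-CX mouse 91 and ENZR mouse 87 gave 5 (1 and 4), and array weights 14 (3 and 11). Array weights also gave 23 (10 and 13) for ENZS against CRPC, 2 (1 and 1) for CRPC against POST-CX and 2 (1 and 1) for the difference between relapse steps.

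Of the mitochondrial members, 2 were called for ENZS against PRE-CX, and 1 as deposited, with no filter, with array weights or with only the groups compared, and 0 centred. For ENZR against PRE-CX the count of 3 became 0 as deposited and 1 centred, with no filter or with array weights. For ENZS against CRPC the count of 1 became 0 under these 4.

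Rescaling without MT- symbols set the median nuclear sum at 28785 TPM in PRE-CX, 28046 in POST-CX, 28199 in CRPC, 28346 in ENZS and 27546 in ENZR, and the mitochondrial one in ENZS at 181507. As deposited the nuclear median was 21051 in POST-CX, 20561 in ENZS and 19727 in ENZR.

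Another scaling moves all genes of a comparison about alike. Of 54 differences of named members, those of SDHC in ENZS (-0.11) and NDUFA5 in ENZR (-0.019) were below 0 when centred, and that of NDUFA5 in ENZR (-0.0033) as deposited. As deposited 41 others no longer passed, and centred 11. TPM as deposited keep each tumour's human share, 12.1 to 97.5%, so the spread within groups changes as well. No paired analysis was possible because no mouse number is shared between groups. All tumours are of 1 cell line, and without read counts the precision of the low members such as COX7B2 is not known.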
